A study of Mus musculus with 2 samples.

Results

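The Serpin genes encode a family of proteins with 1 common fold, most of which inhibit proteases. Their members were taken from the gene list of 2 droplet single-cell RNA libraries of mouse thymic epithelial cells (TECs) by symbol, which gave 62 genes named Serpin with a clade letter from a to i. Of these, 56 had at least 10 UMIs (unique molecular identifiers, each marking 1 captured RNA molecule) over the kept cells, out of 22681 genes of any name that reached this number and 32285 listed. Members were therefore chosen on their measured UMIs. Just inside that limit lay Serpina6 and Serpinb6d with 11 UMIs each, and just outside it lay Serpina16 with 7 and Serpina1f with 5. The other genes left out were Serpinb9f with 4 UMIs, Serpini2 and Serpinb9h with 2 each, and Serpina1d with 1.

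Both libraries came from female C57BL/6 mice that were 9 weeks old when analysed. The irradiated mice had received 5.5 Gy of γ-rays at 7 weeks and were analysed 15 days later, and the control mice had not been irradiated. TECs were sorted as EpCAM+CD45-TER119- cells from collagenase-digested thymus, and cells of 3 mice were pooled into 1 library per condition. The deposit's labels attach the conditions to the libraries the other way round, and the libraries were named here by the cell numbers in the study's text, so that every direction between them would reverse under the labels. The labels also give 4 weeks of age in the protocol text and another version of the droplet chemistry than the study's methods. There was 1 library per condition, so differences between them have no replicates behind them and were not tested. Intervals are exact Poisson 95% intervals of the summed UMIs and cover counting error only.

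The control library had 4937 barcodes, of which 3233 were kept, with a median of 13412 UMIs per cell. The irradiated library had 7167 barcodes, of which 5070 were kept, with a median of 13003.5 UMIs. The median mitochondrial share was 5.98% in each, and 5 of the kept barcodes occurred in both libraries. Levels are UMIs of a gene per 10000 summed UMIs of a group of cells. The assay counts 3′ ends, 1 per molecule, so that levels are not scaled by transcript length.

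Serpins trap their target by a mobile loop that the protease cuts, after which the serpin changes shape and holds the enzyme. Clade a members are mostly secreted plasma proteins of the liver such as antitrypsin, whereas clade b members lack a classical signal peptide and act mostly inside cells, where many hold back proteases of granules and lysosomes. A few members inhibit no protease, among them Serpinh1, a collagen chaperone of the endoplasmic reticulum. In the thymic medulla, TECs (mTECs) transcribe many genes of other tissues, a part of them under the regulator Aire, and some mTECs take on programmes of peripheral cell types and are called mimetic cells.

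The 14 clusters of the 8303 kept cells were built without the Serpin genes. Clusters 0 and 1 (1119 and 1016 cells) were Ccl21a+ mTEC-like, and cluster 1 differed by Atf3, Adamts1 and Rrad among its leading genes. Cluster 2 (932 cells) was Aire+ mTEC-like, cluster 7 (722) resembled transit-amplifying mTECs in division, cluster 8 (516) was cTEC-like, cluster 9 (300) tuft-like, cluster 10 (193) keratinocyte mimetic-like and cluster 11 (147) nurse cTEC-like. Clusters 12 (43, neuroendocrine mimetic-like) and 13 (21, ciliated mimetic-like) were too small to be ranked. The other 4 clusters keep a number because their leading genes were mixed. Cluster 3 (927 cells) was led by Pnp2, Ccl9, Muc13, Lypd8 and Ccl20, cluster 4 (833) by Nts, Apod, S100a9 and S100a8, cluster 5 (801) by Prelp, Prss23, Il33 and Dcn, and cluster 6 (733) by Matn1, Mybpc1, Ung and Ccnd1. Epcam ranged from 2.16 to 12.5 per 10000 across clusters, and the leukocyte gene Ptprc did not exceed 0.613 except in cluster 11, at 2.61. Thymocyte markers were 6 of the 10 leading genes of cluster 11 and summed to 38.5 per 10000 there, against 0.162 in cluster 8, while cTEC markers summed to 406 and 355. Its name rests on both marker lists together, and the part of thymocyte RNA in its low Serpin levels was not tested. These names were rebuilt from markers and can differ from those of the study. In cluster 10 keratinocyte markers summed to 85.2 per 10000, but enterocyte markers also summed to 66.1, against 64.1 in cluster 3. Of the leading genes of cluster 2, only Hdc was a listed Aire+ mTEC marker. These markers summed to 58.7 there, 69.7 in cluster 3 and 63.2 in cluster 4, while Aire itself was highest in cluster 2. In cluster 5 Dcn stood at 14.8 per 10000, whereas the fibroblast genes Pdgfra and Col1a1 stood at 0.044 and 0.126.

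Promoter sequences of 6 members are shown because their genes differ in the expression patterns described further on. Serpinb6a and Serpinh1 were found in most cells, while Serpinb2, Serpinb7, Serpinb11 and Serpinb12 lie in 1 array of clade b genes on chromosome 1 and had a large share of their UMIs in few cells. Serpinb6a was not even across cells, and 27.8% of its UMIs lay in the 1% of cells with the most. Each sequence runs 5′ to 3′ on the gene's strand from 250 bases before to 50 bases after the RefSeq start of transcription (GRCm38.p6). Capitals mark the letters TATAAA on either strand. Serpinb6a lies at chr13:34002745-34003044 (minus strand), Serpinh1 at chr7:99353190-99353489 (minus), Serpinb2 at chr1:107511173-107511472 (plus), Serpinb7 at chr1:107422439-107422738 (plus), Serpinb11 at chr1:107362064-107362363 (plus) and Serpinb12 at chr1:106934199-106934498 (plus).
Serpinb6a: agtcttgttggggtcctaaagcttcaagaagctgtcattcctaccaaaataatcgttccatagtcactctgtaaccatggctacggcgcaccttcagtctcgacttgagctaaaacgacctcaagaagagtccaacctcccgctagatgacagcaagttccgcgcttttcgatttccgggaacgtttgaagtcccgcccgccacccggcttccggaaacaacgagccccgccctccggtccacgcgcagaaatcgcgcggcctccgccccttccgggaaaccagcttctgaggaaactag
Serpinh1: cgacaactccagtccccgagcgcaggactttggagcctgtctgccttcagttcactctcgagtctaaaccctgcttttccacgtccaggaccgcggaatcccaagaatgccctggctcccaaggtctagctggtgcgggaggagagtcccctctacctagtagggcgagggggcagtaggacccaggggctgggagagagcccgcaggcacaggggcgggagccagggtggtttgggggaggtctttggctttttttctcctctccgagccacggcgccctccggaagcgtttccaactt
Serpinb2: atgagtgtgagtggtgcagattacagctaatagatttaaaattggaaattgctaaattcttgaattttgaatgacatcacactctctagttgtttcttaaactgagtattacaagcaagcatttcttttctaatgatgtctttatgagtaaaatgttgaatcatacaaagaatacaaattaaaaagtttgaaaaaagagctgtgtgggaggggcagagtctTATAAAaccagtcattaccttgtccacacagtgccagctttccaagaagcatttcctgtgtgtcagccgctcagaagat
Serpinb7: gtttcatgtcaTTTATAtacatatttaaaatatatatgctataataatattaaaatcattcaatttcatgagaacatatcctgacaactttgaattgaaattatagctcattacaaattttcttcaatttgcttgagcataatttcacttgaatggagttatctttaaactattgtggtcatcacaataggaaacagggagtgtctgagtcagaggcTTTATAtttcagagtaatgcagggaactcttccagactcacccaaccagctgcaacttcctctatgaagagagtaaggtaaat
Serpinb11: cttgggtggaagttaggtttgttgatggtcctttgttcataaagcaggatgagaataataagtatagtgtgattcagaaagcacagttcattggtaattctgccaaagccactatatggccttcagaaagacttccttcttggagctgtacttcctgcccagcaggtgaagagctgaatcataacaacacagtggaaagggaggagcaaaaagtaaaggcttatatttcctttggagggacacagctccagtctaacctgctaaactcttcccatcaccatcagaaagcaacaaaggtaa
Serpinb12: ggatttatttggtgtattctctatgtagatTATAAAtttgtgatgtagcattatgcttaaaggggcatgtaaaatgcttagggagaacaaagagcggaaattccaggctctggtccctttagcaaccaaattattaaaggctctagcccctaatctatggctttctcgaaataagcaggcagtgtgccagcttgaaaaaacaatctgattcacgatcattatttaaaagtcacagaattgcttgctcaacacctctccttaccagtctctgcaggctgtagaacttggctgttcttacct

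The Serpinb6a and Serpinh1 windows held 25 and 16 CG dinucleotides. The windows shown from the chromosome 1 array held 1 in Serpinb2, none in Serpinb7 and Serpinb11, and 3 in Serpinb12. Elsewhere in this array Serpinb5 held 7 and Serpinb8 held 5, while Serpinb3a, Serpinb3b, Serpinb3c and Serpinb3d held at most 1. Among other members found in many cells, Serpina3i, Serpina3g, Serpinb6b and Serpinb9 held 0, 4, 4 and 5, and Serpini1 held 15. TATAAA began 29 bases before the start of Serpinb2 and 220 before that of Serpinb12. In Serpinb7 the letters lay on the other strand at 33 and 239 bases before the start, and this RefSeq start lies inside the longer span that GENCODE gives the gene. RefSeq promoters were at hand for 47 of the 56 members, and Serpinb1a was among the 9 that had none. TATAAA on either strand was found in 13 of the 47 windows (27.7%) and in 14.2% of 27025 windows of all genes. CCAAT was found in 16 (34.0%) against 37.9%, and GAANNTTC, a heat shock element type of motif that reads the same on both strands, in 4 (8.51%) against 7.95%. The median window of a member held 3 CG dinucleotides, from 0 to 41, and that of all genes held 7. A match of letters is a description and not a site of binding.

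Serpin members together gave 257543 UMIs, or 20.3 per 10000, and a few clade b genes made up most of them. Clade b contributed 189213 UMIs (73.5%) from 25 members, clade h 26647 (10.3%) from Serpinh1 alone and clade a 25678 (9.97%) from 21 members. Clade e gave 2.29%, clade g 1.12%, clade f 1.05% from 2 members, clade c 0.907%, clade i 0.825% and clade d 0.0202%. Serpinb1a and Serpinb6a alone held 49.7% of all member UMIs. The family was highest in cluster 3, at 51.1 per 10000, followed by the keratinocyte mimetic-like cluster 10 at 33.5 and cluster 4 at 24.6. It was lowest among ranked clusters in nurse cTEC-like cluster 11, at 9.03, tuft-like cluster 9, at 9.06, and dividing cluster 7, at 9.20. Clade b followed the same order at its upper end, with 46.5 in cluster 3, 28.2 in cluster 10 and 19.3 in cluster 4, against 5.73 in cluster 7. Among ranked clusters, clade a was led by cluster 10 (3.46) and cluster 4 (3.35) and stood at 0.292 in cluster 9. In cluster 12, which was too small to be ranked, clade a stood higher, at 5.74 (5.01 to 6.54).

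**Figure D1:**
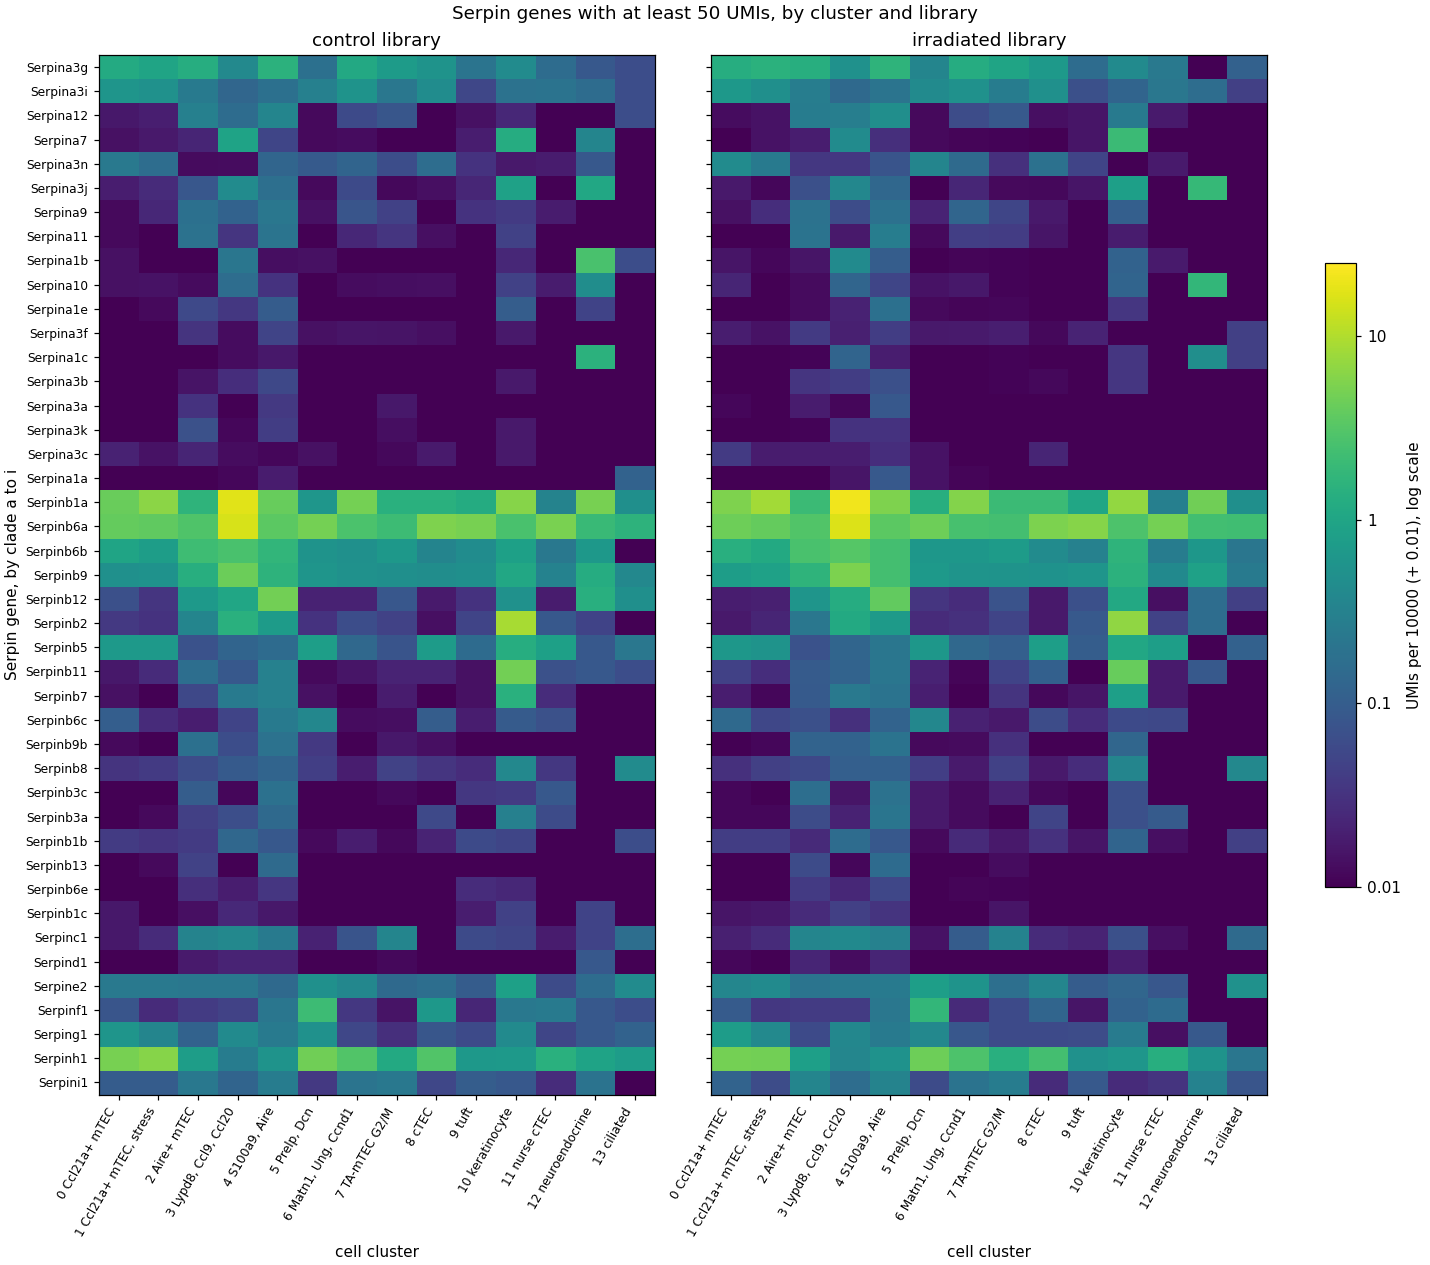
Heat maps of members with at least 50 UMIs (rows) across the 14 clusters (columns), control library on the left and irradiated library on the right, coloured by UMIs per 10000 UMIs on a log scale with 0.01 added. Brighter colours mark higher levels. Serpinb1a, Serpinb6a and Serpinb9 are brightest in cluster 3 in both libraries, Serpinb2 and Serpinb11 in cluster 10, and Serpinb12 in cluster 4.

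The 4 clade b members with most UMIs, Serpinb1a, Serpinb6a, Serpinb6b and Serpinb9, were highest in cluster 3. Serpinb1a (ENSMUSG00000044734, chr13:32842092-32851185), an inhibitor of neutrophil elastase and cathepsin G, had 65601 UMIs in 5560 cells. Its level in cluster 3 was 17.9 per 10000 (17.6 to 18.2) in the control and 20.9 (20.6 to 21.3) in the irradiated library. The next cluster was 1, with 6.51 and 8.35, and the lowest was 11, with 0.319 and 0.284. Serpinb6a (ENSMUSG00000060147, chr13:33917918-34002794), an intracellular inhibitor of cathepsin G, had 62312 UMIs in 7680 cells. It was also highest in cluster 3, with 15.4 (15.1 to 15.7) and 16.6 (16.3 to 16.9), and its lowest cluster was 7, with 2.15 and 2.41. Both genes thus had the same top cluster, but Serpinb6a was spread far more evenly over the others. The control level of Serpinb6a was 5.49 in cTEC-like cluster 8 and 5.04 in tuft-like cluster 9.

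Serpinb9 (ENSMUSG00000045827), an inhibitor of granzyme B, had 17190 UMIs. Its level in cluster 3 was 4.31 (4.15 to 4.47) in the control and 5.33 (5.16 to 5.5) in the irradiated library, its level in cluster 4 was 1.55 and 2.40, and its lowest was in cluster 11, with 0.310 and 0.404. Serpinb6b (ENSMUSG00000042842), which binds granzyme A, had 17515 UMIs and a flatter pattern among mTEC clusters. It stood at 2.62 (2.5 to 2.75) and 3.20 (3.07 to 3.34) in cluster 3, at 2.23 and 2.65 in cluster 2 and at 0.218 and 0.262 in cluster 11. Both genes were higher in Aire-expressing clusters 2, 3 and 4 than in cTEC-like cluster 8, where Serpinb6b had 0.327 in the control and Serpinb9 had 0.451. Serpinb9b, an inhibitor of granzyme M, had 692 UMIs and was highest in cluster 4, with 0.183 and 0.186. Its relative Serpinb1b (475 UMIs) was highest in cluster 3, with 0.125 and 0.148, as was Serpinb1c (103 UMIs). Serpinb6c (952 UMIs) was highest in cluster 5, with 0.369 and 0.362, and Serpinb6e (119 UMIs) in cluster 4.

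The 11 clade b members in the chromosome 1 array (chr1:106861173-107610484) were split between 2 clusters. In order along the chromosome they are Serpinb5, Serpinb12, Serpinb13, Serpinb3a, Serpinb3d, Serpinb3b, Serpinb3c, Serpinb11, Serpinb7, Serpinb2 and Serpinb8. Serpinb2, Serpinb11, Serpinb7, Serpinb8, Serpinb5 and Serpinb3a were highest in keratinocyte mimetic-like cluster 10, and the other 5 were highest in cluster 4. Serpinb2, the type 2 inhibitor of plasminogen activators, had 5632 UMIs. Its level in cluster 10 was 9.03 (8.55 to 9.53) in the control and 6.94 (6.48 to 7.42) in the irradiated library, followed by cluster 3 with 1.45 and 1.16. In cTEC-like cluster 8 it stood at 0.00389 and 0.00731. Serpinb11 (2065 UMIs) had 57.4% of its UMIs in cluster 10, with a level of 4.76 (4.41 to 5.13) and 4.08 (3.73 to 4.46), and the next cluster was 4 with 0.303 and 0.208. Serpinb7, or megsin, had 1138 UMIs and reached 1.42 (1.23 to 1.63) and 0.831 (0.678 to 1.01) in cluster 10. Serpinb8, which binds furin, had 661 UMIs with 0.382 and 0.342 there.

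Serpinb5, or maspin, which inhibits no protease, was the widest of the cluster 10 genes. Its 4143 UMIs gave 1.30 (1.12 to 1.5) and 1.09 (0.915 to 1.29) in cluster 10, but also 0.847 and 0.797 in nurse cTEC-like cluster 11. It was lowest in Aire+ mTEC-like cluster 2, with 0.0630 and 0.0621. Serpinb3a (489 UMIs) had its top cluster in 10 in the control (0.292) and in 4 in the irradiated library (0.203). Serpinb12 (ENSMUSG00000059956, chr1:106934449-106957080), an inhibitor of trypsin-like proteases, had 9111 UMIs, of which 64.2% lay in cluster 4. Its level there was 4.73 (4.56 to 4.91) and 3.79 (3.66 to 3.93), against 1.03 and 1.25 in cluster 3 and 0.521 and 1.12 in cluster 10. Serpinb13, an inhibitor of cathepsins that adjoins Serpinb12 in the array, had 69.1% of its 291 UMIs in cluster 4, at 0.142 and 0.147. In cluster 10 it had no UMI, which allows up to 0.0256 per 10000 in the control and 0.0301 in the irradiated library. Serpinb12 and Serpinb13 thus had the same top cluster. Serpinb5, which adjoins Serpinb12 on its other side, was highest in cluster 10. Serpinb3c (554 UMIs) stood at 0.178 and 0.181 in cluster 4. Its annotated span overlaps that of Serpinb3b on the same strand, so that the split between them is uncertain.

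**Figure D2:**
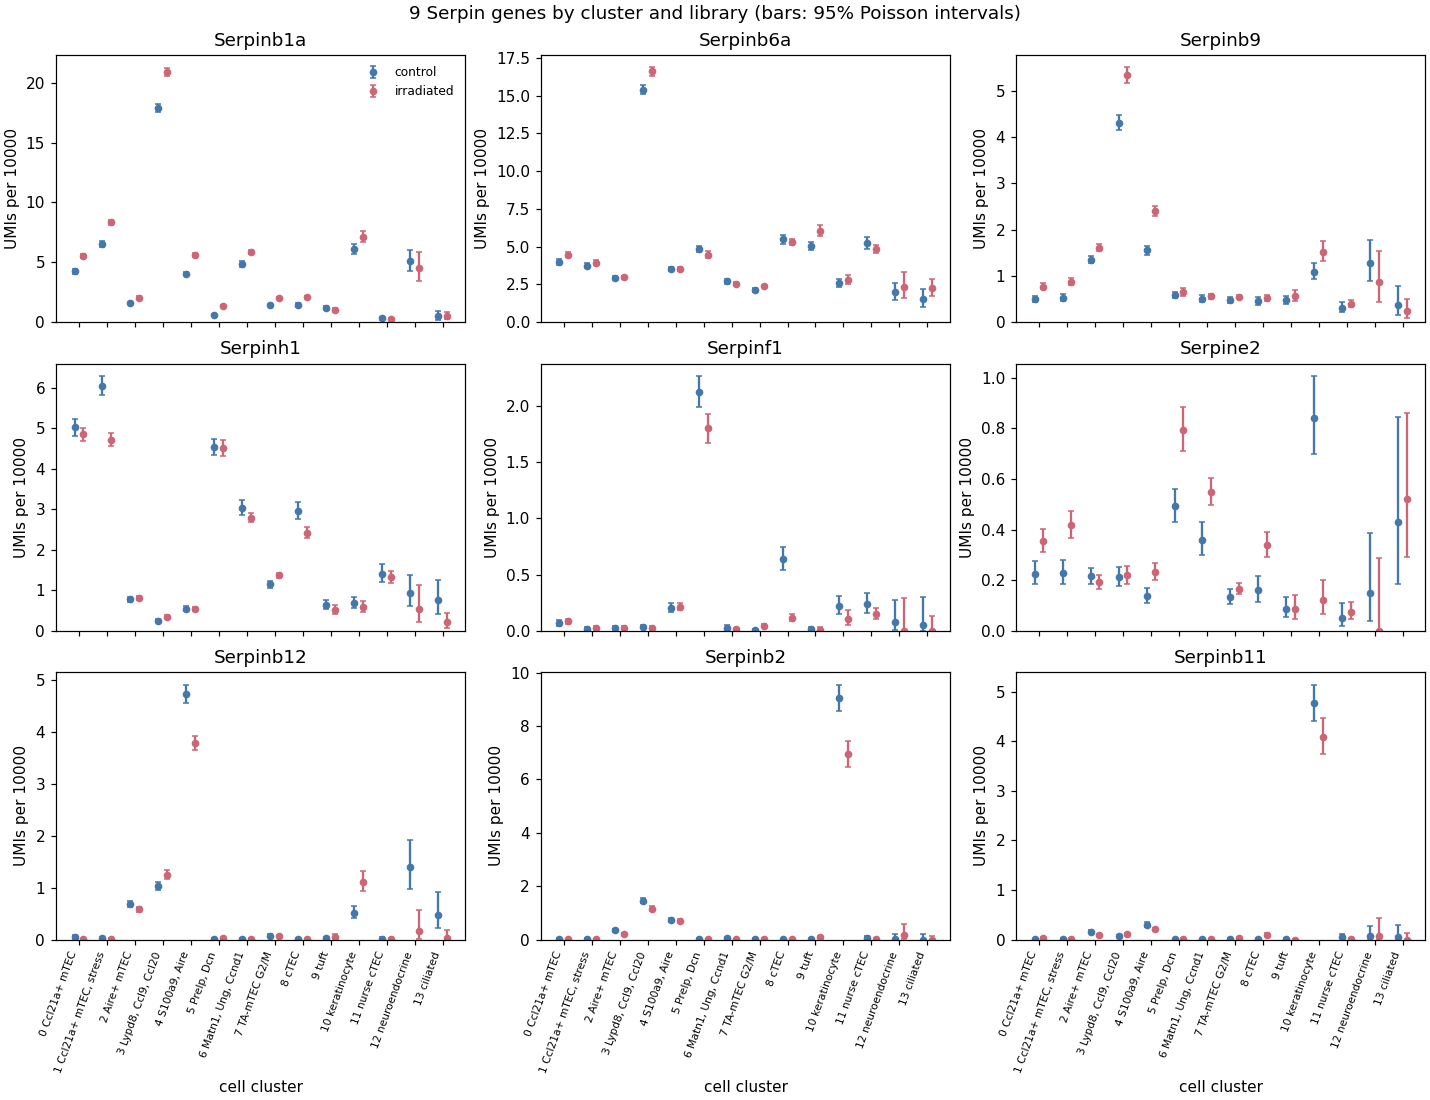
Levels of 9 members (UMIs per 10000 UMIs, vertical axes) in each cluster (horizontal axes), control and irradiated library side by side, with exact Poisson 95% intervals. Serpinb1a, Serpinb6a and Serpinb9 peak in cluster 3, Serpinb12 in cluster 4, Serpinb2 and Serpinb11 in cluster 10, Serpinf1 in cluster 5, and Serpinh1 is high in clusters 0, 1 and 5.

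Serpinh1 (ENSMUSG00000070436, chr7:99345376-99353239), the collagen chaperone, had 26647 UMIs and was highest in the Ccl21a+ mTEC-like clusters and cluster 5. In cluster 1 it stood at 6.04 (5.81 to 6.28) in the control and 4.72 (4.55 to 4.89) in the irradiated library. Cluster 0 had 5.02 and 4.85 and cluster 5 had 4.54 and 4.51, so that clusters 0 and 1 changed order between the libraries. The lowest level was in cluster 3, with 0.254 and 0.351, where the clade b genes were highest. Its collagen clients did not share 1 pattern. Col6a1 stood at 7.95 in cluster 0, 7.76 in cluster 1 and 0.30 in cluster 3, over both libraries, and Col4a1 stood at 2.40 in cluster 1. Col1a1, in contrast, stood at 0.898 in cluster 4 and 0.318 in cluster 2, against 0.0380 in cluster 0 and 0.0427 in cluster 1.

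The extracellular members Serpine2, Serpinf1 and Serping1, of clades e, f and g, were also found in cluster 5. Clade f was low in cluster 0, at 0.0785 per 10000 over both libraries. Serpinf1, or pigment epithelium-derived factor, which inhibits no protease, had 2676 UMIs with 64.9% of them in cluster 5. Its level there was 2.12 (1.99 to 2.26) and 1.80 (1.67 to 1.93). Serpine2, or protease nexin, had 3514 UMIs with 0.491 (0.429 to 0.560) and 0.794 (0.712 to 0.884) in cluster 5. Cluster 10 gave 0.841 (0.698 to 1.01) in the control but 0.122 (0.0684 to 0.202) in the irradiated library. Serping1, the C1 inhibitor of the complement and contact systems, had 2895 UMIs and was highest in cluster 0, with 0.575 (0.508 to 0.650) and 0.747 (0.685 to 0.814). Its level in cluster 7 was 0.0184 in the control.

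Clade a members fell into a few patterns. Serpina3g, an inhibitor of lysosomal cathepsins, had 12138 UMIs in 3964 cells and was highest in cluster 4, with 1.53 (1.44 to 1.63) and 1.61 (1.52 to 1.70), followed in the control by cluster 2 with 1.30. In tuft-like cluster 9 it stood at 0.191 and 0.149. Serpina3i (4052 UMIs) was highest in cluster 0, with 0.580 (0.512 to 0.654) and 0.632 (0.575 to 0.694), and lowest in cluster 9, with 0.0434 and 0.0574. Serpina3n, an acute-phase inhibitor, had 1340 UMIs with 0.226 (0.184 to 0.274) and 0.430 (0.383 to 0.481) in cluster 0, against 0.00252 in the control cells of cluster 2. Serpina3j (1198 UMIs) was highest in cluster 10, with 0.862 (0.717 to 1.03) and 0.815 (0.663 to 0.991).

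Among ranked clusters, Serpina12, Serpina7, Serpina1b, Serpina10, Serpina9 and Serpina11 had their top level in cluster 3, 4 or 10. Serpina12, or vaspin, had 1652 UMIs, with 0.344 (0.299 to 0.394) and 0.471 (0.425 to 0.522) in cluster 4 and no UMI in the control cells of clusters 8 and 11. Serpina7, the carrier of thyroid hormone, had 1440 UMIs in 160 cells. Its level was 1.25 (1.08 to 1.45) and 2.04 (1.79 to 2.31) in cluster 10, and 0.929 (0.857 to 1.00) and 0.427 (0.380 to 0.478) in cluster 3, which held 64.2% of its UMIs. Serpina1b, an antitrypsin gene, had 70.8% of its 609 UMIs in cluster 3, at 0.205 (0.172 to 0.242) and 0.417 (0.370 to 0.467). These values rest on 7 control and 21 irradiated cells with a UMI. A single cell held 66.7% of the control and 34.1% of the irradiated UMIs. Serpina10, the inhibitor that depends on protein Z, had 58.9% of its 316 UMIs there, at 0.153 and 0.118. Serpina9 (953 UMIs) and Serpina11 (790 UMIs) were highest in cluster 4, with 0.214 and 0.176 for Serpina9 and 0.193 and 0.263 for Serpina11. In the irradiated library the level of Serpina9 in cluster 2, at 0.180, lay beside that in cluster 4.

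The other antitrypsin genes and Serpina3 paralogs were rare, and the values of several rest on few cells. Serpina1e (273 UMIs) had 68.1% of them in cluster 4, with 0.0873 and 0.169. Serpina1c (147 UMIs) had 56.5% in cluster 3, with 2 UMIs in the control and 81 in the irradiated library, and Serpina1a (77 UMIs) had 87.0% in cluster 4, with 0.00823 and 0.0790. In cluster 4, Serpina3b (143 UMIs, 51.0% of them there) stood at 0.0445 and 0.0586 and Serpina3a (108 UMIs, 70.4%) at 0.0263 and 0.0765. Serpina3f (150 UMIs) and Serpina3k (103) were also highest in cluster 4, and Serpina3c (90) in cluster 0. Near-identical 3′ ends make some of these counts uncertain. Among members, 9 shared at least 1 window of 90 bases in the last 500 bases of their transcripts with another gene, most of all Serpina11 (42.5% of windows, with Gm28577), Serpina1a (35.9%), Serpinb9e (20.2%), Serpina1c (15.3%) and Serpinb9g (11.4%). The spans of Serpina1b and Serpina1d, and of Serpina3k and Serpina3m, overlap on 1 strand.

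Antithrombin, Serpinc1 (2337 UMIs in 1109 cells), was found in the Aire-expressing and dividing clusters. Its level was 0.382 (0.337 to 0.432) and 0.407 (0.361 to 0.457) in cluster 3, 0.344 and 0.315 in cluster 7 and 0.325 and 0.345 in cluster 2, so that these 3 clusters lay close together. In the control cells of cluster 0 it stood at 0.00664. Serpini1, or neuroserpin, an inhibitor of tissue plasminogen activator, had 2126 UMIs with 0.259 (0.220 to 0.302) and 0.319 (0.280 to 0.361) in cluster 4, while cluster 2, at 0.340, was higher in the irradiated library. Heparin cofactor II, Serpind1, had 52 UMIs and was highest in cluster 4.

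Members under 50 UMIs entered no comparison over all kept cells. They were Serpina5 with 48 UMIs (top cluster 0), Serpina3m with 40, Serpine3 with 38, Serpinf2, Serpinb9c and Serpinb9d with 31 each, Serpinb3b with 26, Serpinb9g with 21, Serpinb3d with 19 and Serpinb6d with 11, all but the first highest in cluster 4. Serpinb9e, with 31 UMIs, was highest in tuft-like cluster 9, which held 71.0% of them, and Serpina6, the carrier of corticosteroids, with 11, in cluster 6. Cluster 4 held at least 50% of the UMIs of Serpina3m (70%), Serpine3 (55.3%), Serpinb9c (77.4%), Serpinb3b (73.1%), Serpinb9g (52.4%) and Serpinb3d (63.2%). Cluster 2 held 54.5% of those of Serpinb6d. Over all 56 members, cluster 4 was the top cluster of 26, cluster 3 of 10, cluster 10 of 8, cluster 0 of 5, cluster 5 of 3, cluster 1 of 2, and clusters 6 and 9 of 1 each. Of the 44 members with at least 50 UMIs, 17 had cluster 4 as their top cluster. Top clusters were not counted over all genes, so these counts show nothing particular to Serpin genes. The top cluster was the same in both libraries for 32 of the 44 members with at least 50 UMIs. It depends on how cells are clustered, and was the same at resolution 0.3 for 17 of the 44.

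The small clusters 12 and 13 gave values from few cells, and top clusters were taken among ranked clusters only. In neuroendocrine mimetic-like cluster 12, Serpina1b had 70 UMIs in 3 cells, all of the control library, and Serpina1c had 47 in 5 cells. Their levels there were 1.78 and 1.19 per 10000, above the 0.313 and 0.0603 of cluster 3 over both libraries. Serpina10 had 35 UMIs in 21 of the 43 cells with at most 4 in any cell, so that its UMIs were spread over many cells of that cluster.

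Cluster 3 itself held unlike cells, and its highest serpins came from a part of it. At resolution 1.0 it split into a group of 268 cells (128 control and 140 irradiated) led by Guca2b, Ccl6, Fabp1, Muc13, Ccl9, Prap1 and Ccl20, named 3b here, a group of 600 cells named 3a, and 59 other cells. Aire stood at 1.89 per 10000 in 3b and 5.36 in 3a. In 3b, Serpinb6a stood at 39.3 in the control and 46.8 in the irradiated library, against 3.95 and 4.42 in 3a. Serpinb1a stood at 38.4 and 48.8 in 3b, against 8.22 and 10.1 in 3a. These 2 genes therefore had their peak in 3b, and in 3a Serpinb6a was below its level in cTEC-like cluster 8. The difference was smaller for Serpinb9, with 6.38 and 8.15 in 3b against 3.20 and 4.04 in 3a.

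The following 3 clade a genes were also higher in 3b. Serpina1b stood at 0.609 and 1.43 in 3b against 0.0119 and 0.00448 in 3a, Serpina7 at 2.32 and 1.23 against 0.261 and 0.0695, and Serpina10 at 0.407 and 0.366 against 0.0309 and 0.0134. The Serpina1b values rest on the few cells of cluster 3 given above. Others were lower in 3b in both libraries. Serpinc1 stood at 0.165 and 0.168 in 3b against 0.485 and 0.504 in 3a, and Serpina3g at 0.201 and 0.178 against 0.490 and 0.677. The 10 leading genes of 3b held 3 enterocyte markers (Lypd8, Muc13 and Fabp1) and 3 microfold markers (Ccl9, Ccl20 and Ccl6). Lypd8 stood at 50.2 and 56.3 in 3b against 4.19 and 5.05 in 3a, and Ccl20 at 25.8 and 30.9 against 0.782 and 1.19. The sub-clusters were made from these cells without the Serpin genes, and no test was made between them.

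The same split was seen in single cells. The 83 cells (the top 1%) with the highest Serpinb1a level had a median of 109 UMIs per 10000, from 62.6 to 250, and 81 of them lay in cluster 3, 70 of these in 3b. For Serpinb6a the top 83 cells had a median of 112, from 25.2 to 372, and 65 lay in 3b. The 2 sets shared 51 cells. Of the top cells for Serpinb12, 50 lay in cluster 4, and of those for Serpinb2 and for Serpinb11, 48 each lay in cluster 10, but these last sets shared only 21 cells. The top cells for Serpina7 lay mostly in cluster 3 (45) and cluster 10 (31).

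Many members had their UMIs in few cells. For each gene with at least 500 UMIs, the share of its UMIs held by its top 1% of cells was computed. The median was 40.6% over 29 members and 12.4% over 12595 genes, and the share was over 50% for 10 of 29 members (34.5%) against 7.34% of all genes. Serpinh1 had the lowest share among the members (7.40%), followed by genes of wide expression such as Serpina3g (13.4%), Serpinb6b (13.9%) and Serpinb9 (17.0%). Serpinb1a had 24.3% and Serpinb6a 27.8%, both above the median of all genes. Serpina7 had 94.0%, Serpinb11 84.6% and Serpinb12 56.0%. The libraries alone gave medians of 41.7% and 41.3%. Among members with a promoter sequence, the 9 with a share over 50% had a median of 1 CG dinucleotide (0 to 5) in the window and TATAAA in 4, whereas the other 16 had a median of 5 (0 to 41) and TATAAA in 2. These 2 were Serpinb2 and Serpinb6c, whose shares of 49.3% and 47.9% lay just under the limit, so the TATAAA counts depend on it. When every cell was thinned to 4000 UMIs, the median cell had UMIs of 3 members (6 without thinning). The mean was 4.81 in 3b and 4.45 in cluster 10, against 1.56 in tuft-like cluster 9.

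Aire levels were set against the Serpin genes by grouping cells by their Aire UMIs after thinning each cell to 4000 UMIs, which 5 shallower cells could not enter. No Aire UMI was seen in 5388 cells, 1 in 761, 2 to 3 in 769 and 4 or more in 1380. Median depths were 11356.5, 15857, 19293 and 18031.5 UMIs in this order, and levels used all UMIs of the cells. A change here means a log2 ratio of at least 1 in size between cells with 4 or more and cells with no Aire UMI, with 0.5 added UMIs. Of the 44 members with at least 50 UMIs, 19 were higher by this measure (43.2%), where 25.0% of 18788 genes were, and 13 were lower (29.5%), where 16.0% were. The median log2 ratio was 0.28 over members and -0.05 over all genes.

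Higher members included the antithrombin gene, Serpinc1, with 0.0550, 0.272, 0.379 and 0.372 per 10000 from no Aire UMI to 4 or more. Serpina12 gave 0.0322, 0.136, 0.213 and 0.343, and Serpina11 gave 0.00963, 0.0766, 0.0697 and 0.193. Serpinb12 gave 0.178, 1.12, 1.90 and 1.27, so that it was highest at 2 to 3 Aire UMIs. Log2 ratios were 4.32 for Serpina11, 4.07 for Serpinb9b, 3.41 for Serpina12, 3.27 for Serpinb13, 2.84 (2.71 to 2.96) for Serpinb12 and 2.76 for Serpinc1. The other higher members were Serpinb3a, Serpinb3c, Serpini1, Serpina1e, Serpina9, Serpina3a, Serpina3b, Serpina3f, Serpina3k, Serpinb1c, Serpinb6b, Serpinb6e and Serpind1.

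Lower members included the 3 with most UMIs. Serpinb1a gave 6.26, 5.26, 3.73 and 2.99 per 10000, Serpinb6a gave 6.09, 3.96, 3.69 and 2.88, and Serpinh1 gave 3.06, 1.26, 0.778 and 0.696. Serpinb6b, also found in many cells, was higher and gave 1.00, 1.45, 1.58 and 2.24. Log2 ratios were -3.68 for Serpina7, -2.41 for Serpinb5, -2.21 for Serpinf1 and -2.13 for Serpinh1. Serpine2, Serping1, Serpina10, Serpina1a, Serpina1b, Serpina1c and Serpina3n were also lower. The directions given for Serpina1a, Serpina1c and Serpina3b turned under another grouping or in the control library alone. Over all cells these groups differ in cluster, so the same comparison was made within the 4 clusters with at least 2 Aire UMIs per 10000. Aire stood at 13.1 in cluster 2, 4.74 in cluster 3, 8.90 in cluster 4 and 5.69 in cluster 7.

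Within cluster 2, which had 48 cells with no Aire UMI and 634 with 4 or more, 9 of 28 members tested were higher, where 14.5% of genes were, and none was lower, where 3.98% were. They were Serpinb12, Serpinb3a, Serpinb11, Serpinb7, Serpinb2, Serpina11, Serpinb6b, Serpinb9b and Serpinb6c. Of these, Serpinb3a, Serpinb7, Serpinb9b and Serpinb6c had no UMI in the 48 cells without Aire, which allows up to 0.0364 per 10000, and Serpinb3a had UMIs in the group with 4 or more Aire UMIs alone. Serpinb3a, Serpinb11, Serpinb7, Serpinb6c and Serpina11 reached the UMI minimum of this comparison only with the UMIs of that group. With 4 or more Aire UMIs Serpinb6c stood at 0.0361, below the 0.0364 allowed without Aire. In the 48 cells without Aire, Serpinb11 and Serpinb2 had 2 UMIs each, Serpina11 had 9 and Serpinb12 had 14. Apart from Serpinb6b, the count of 9 therefore rests on groups with few or no UMIs, and its share depends in part on the UMI minimum. Serpinb6b gave 1.19, 2.08, 2.33 and 2.66 per 10000, a log2 ratio of 1.16 that was 2.10 in the control and 0.80 in the irradiated library. Serpinb2 gave 0.0198 (2 UMIs), 0.175, 0.225 and 0.305.

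Within cluster 3 (419 and 198 cells), 5 of 27 members were higher, where 8.18% of genes were, and 9 were lower, where 10.1% were. Serpinb6a gave 26.4, 8.38, 9.18 and 3.32 per 10000, a log2 ratio of -2.99 that was -3.06 in the control and -2.99 in the irradiated library. Serpinb1a gave 27.6, 13.8, 14.5 and 8.68, with -1.67 (-1.41 and -1.91). Serpina7 gave 1.30, 0.232, 0.0438 and 0.0419. Serpinb7, Serpinb8, Serpina10, Serpina1b, Serpina1c and Serpina3j were also lower, of which Serpina1b and Serpina1c had their UMIs in few cells of this cluster. In the same cells Serpinc1 gave 0.160, 0.413, 0.617 and 0.780, a log2 ratio of 2.28 (3.49 in the control and 1.37 in the irradiated library), and Serpina12 gave 0.0910, 0.201, 0.374 and 0.407, with 2.16 (2.98 and 1.58). Serpinb12, Serpina9 and Serpinb9b were the other higher members. Sub-clusters 3a and 3b differ in Aire, and the part of this split in the values by Aire group was not tested.

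Within cluster 4 (126 and 363 cells), 5 of 35 members were higher, where 9.17% of genes were, and 6 were lower, where 8.57% were. Serpina11 gave 0.0532, 0.209, 0.198 and 0.324 per 10000 and Serpina12 gave 0.251, 0.247, 0.4 and 0.551, and Serpina3a and Serpinb9b were also higher. Serpinb12, which had most of its UMIs in this cluster, gave 2.72, 4.31, 5.90 and 3.67 and changed by less than 2-fold between the end groups. Serpinb3a, Serpinb11, Serpinb7, Serpina1a, Serpina3j and Serpinb6c were lower, Serpina1a with no UMI at 4 or more Aire UMIs, which allows up to 0.00622 per 10000. Within dividing cluster 7 (265 and 160 cells), 5 of 22 members were higher, where 6.48% of genes were, and 7 were lower, where 8.12% were. Serpinb1a gave 4.07, 1.69, 0.5 and 0.581 there, a log2 ratio of -2.81 (-1.89 in the control and -3.15 in the irradiated library). Serpinb5, Serping1, Serpinh1, Serpinf1 and Serpina3n (no UMI at 4 or more, which allows up to 0.00802) were also lower, and Serpinb12, Serpinb2, Serpinc1, Serpinb6b and Serpinb9 were higher. Serpinb1a was thus lower with Aire by at least 2-fold in clusters 3 and 7, whereas Serpinb9b was higher in clusters 3 and 4. In cluster 2 Serpinb1a gave 1.54, 0.828, 1.10 and 2.24, and so was higher at 4 or more Aire UMIs by less than 2-fold.

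**Figure D3:**
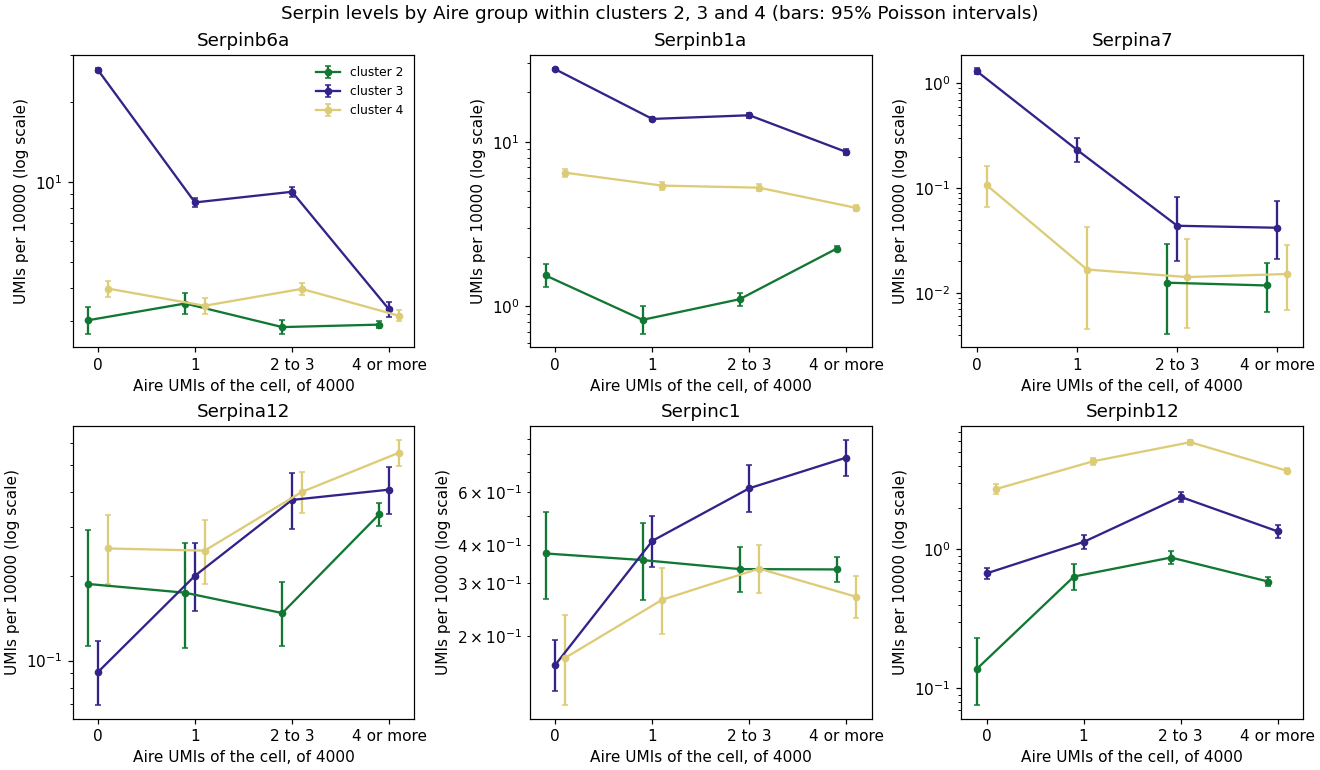
Levels of 6 members (UMIs per 10000 UMIs, log vertical axes) in cells grouped by Aire UMIs (0, 1, 2 to 3, and 4 or more of 4000 thinned UMIs, horizontal axes) within clusters 2, 3 and 4, with exact Poisson 95% intervals; groups with no UMI, which Serpina7 had in cluster 2 at 0 and 1 Aire UMIs, are not drawn. In cluster 3 Serpinb6a falls from 26.4 to 3.32 and Serpinc1 rises from 0.160 to 0.780.

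Between the libraries, over all kept cells, the family as a whole was at nearly the same level, and few members moved by 2-fold. Of the 44 members, 1 was higher in the irradiated library by a log2 ratio of at least 1 (2.27%), where 0.708% of 18788 genes were, and 3 were lower (6.82%), where 3.69% were. The median log2 ratio, irradiated over control, was -0.00 over members and -0.06 over all genes. The range of a ratio runs between the ratios of opposite ends of the 2 intervals. Serpina7 had -1.11, but -0.54 when the clusters were given the same weights in both libraries. Serpina3k had -1.62 from 70 and 33 UMIs in 22 cells. Serpina1a, the higher member, had 2.48 (1.19 to 3.92) from 8 and 69 UMIs in 11 cells, and so rests on few cells. The UMI minimum was taken over both libraries, so a member could enter only through the library in which it was high. Serpina1a and Serpina3k entered in this way, and the shares of members therefore depend in part on this minimum.

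The most abundant members differed little over all cells. Log2 ratios were 0.15 for Serpinb1a, -0.10 for Serpinb6a, -0.05 for Serpinh1, 0.21 for Serpinb6b, 0.14 for Serpinb9 and 0.30 for Serpina3g. Members with cluster 10 as their top cluster had -0.82 for Serpinb2, -0.69 for Serpinb11, -0.69 for Serpinb7 and -0.71 for Serpina3j, and Serpinb12 of cluster 4 had -0.41. With the same cluster weights these became -0.34, -0.19, -0.29, -0.25 and -0.18. Other members with cluster 10 as their top cluster moved less, with -0.32 for Serpinb8, -0.12 for Serpinb5 and -0.09 for Serpinb3a, except Serpina7 at -1.11. With the same weights Serpinb8, Serpinb5 and Serpinb3a had -0.10, -0.09 and 0.08. Cluster 10 made up 3.06% of the kept control and 1.85% of the kept irradiated cells, and the summed keratinocyte markers stood at 5.03 and 2.98 per 10000. Serpinf1 had -0.74, or -0.36 with the same weights, while its top cluster 5 made up 12.5% and 7.83%. Serpina3n had 0.68, or 0.62 with the same weights.

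**Figure D4:**
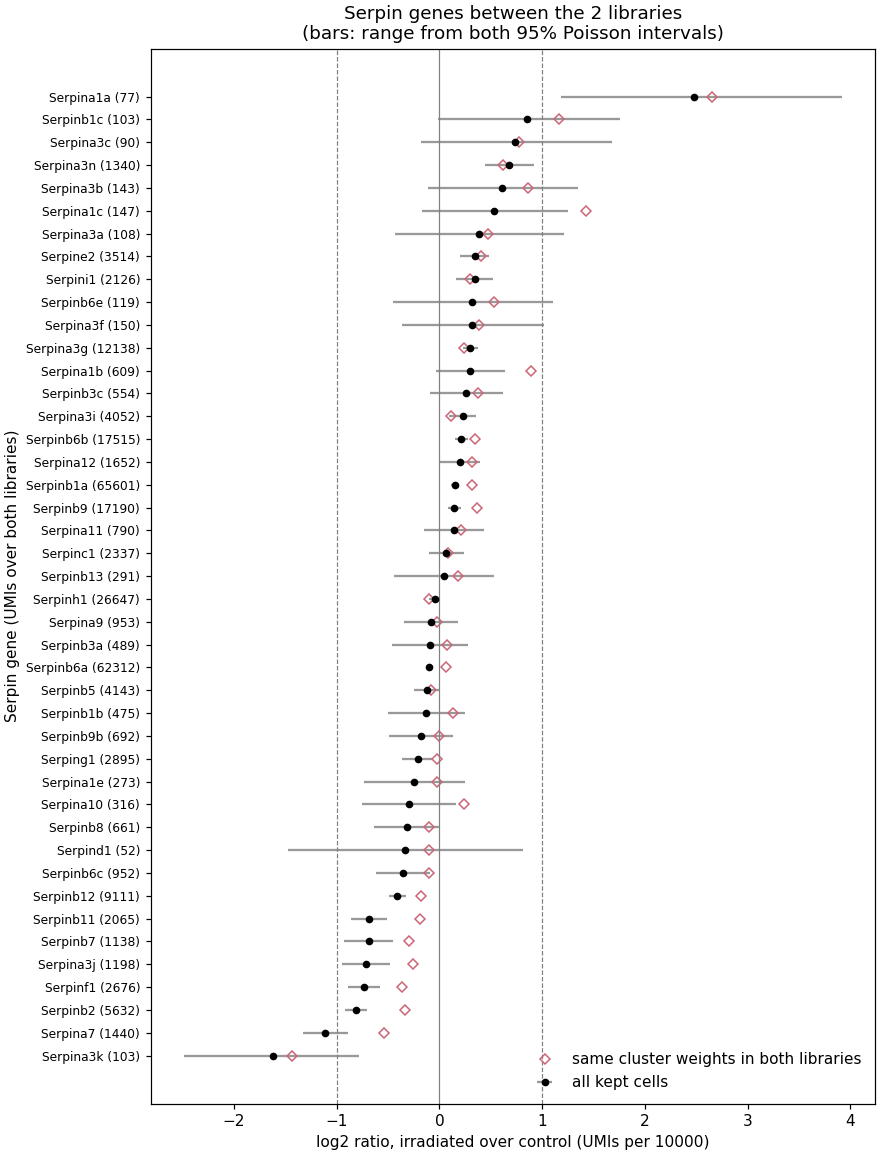
Log2 ratio of irradiated over control level (horizontal axis) of members with at least 50 UMIs (rows, UMIs in brackets) over all kept cells, with bars for the range from both exact Poisson 95% intervals; open diamonds give the ratio with the same cluster weights and dashed lines mark 2-fold. The points of Serpinb2, Serpinb11 and Serpinb7 lie at -0.82, -0.69 and -0.69, and their diamonds lie nearer to 0.

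Within clusters, 245 pairs of a member and a cluster had at least 20 UMIs over both libraries in a cluster with at least 100 cells of each, from 48 members and 10 clusters. A log2 ratio of at least 1 upwards was found in 28 pairs (11.4%), where 2.29% of 133399 pairs of all genes had it, and downwards in 24 (9.80%), where 3.13% had it. Many of these pairs rest on few cells. The limit of 20 UMIs was taken over both libraries, so a pair could enter only through the library in which it was high. Serpina1c in cluster 3, Serpinf1 in cluster 7 and Serpina3k in cluster 2 entered in this way. The shares of members therefore depend in part on this limit. The range lay off 0 in 36 of the pairs past 2-fold, and 9 of the pairs past 2-fold had at least 50 cells with a UMI. No share over all genes is given for these counts, so they show nothing particular to Serpin genes.

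Several clade b genes with cluster 3 as their top cluster were higher in the irradiated library in most clusters. Serpinb9 was higher in 10 of 10 clusters, by 0.13 to 0.71, with 5 ranges above 0, and Serpinb1a in 9 of 10, with -0.25 in tuft-like cluster 9. Serpinb6a was higher in 6 of 10 and moved little, from -0.11 to 0.26. Serpinb6b, Serpina3g and Serpine2 were higher in 9 clusters each, with 5, 4 and 6 ranges above 0. Of the other members compared in 10 clusters, Serpina3i was higher in 8, Serpini1 in 6, Serping1 in 5, Serpinb5 in 4 and Serpinh1 in 3. All clusters come from the same 2 libraries and are not repeats, and such directions were not counted over all genes. Pairs past 2-fold with at least 50 cells were Serpinb1a in cluster 5 (1.19, from 272 to 578 UMIs), Serpina3g in cluster 5 (1.00), Serpina3n in cluster 5 (2.08, from 37 to 147 UMIs in 23 and 62 cells) and Serpine2 in cluster 8 (1.08). Lower pairs included Serping1 in cluster 2 (-1.18), Serpinf1 in cluster 8 (-2.42, from 164 to 65 UMIs in 54 and 28 cells) and Serpina7 in cluster 3 (-1.12, where 1 control cell held 31.4% of the control UMIs). Other large ratios came from very few cells. Serpina1c in cluster 3 had 4.96, but its irradiated UMIs lay in 10 cells, 56.8% of them in 1 cell, and Serpina1b in cluster 4 had 4.47 from 5 cells. A list of 12 stress genes, with Atf3, Fos, Jun and Hspa1a among them, also differed within clusters. Their summed level was 71.1 per 10000 in the control and 37.1 in the irradiated library, and it was lower in all 10 clusters, by -1.20 to -0.52 on the log2 scale. Control levels of the list ranged from 35.6 in cluster 2 to 199 in cluster 1, irradiated levels from 24.9 to 96.4 in the same clusters, and none of the 12 genes was at 0. Their part in the ratios of the members was not tested.

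**Figure D5:**
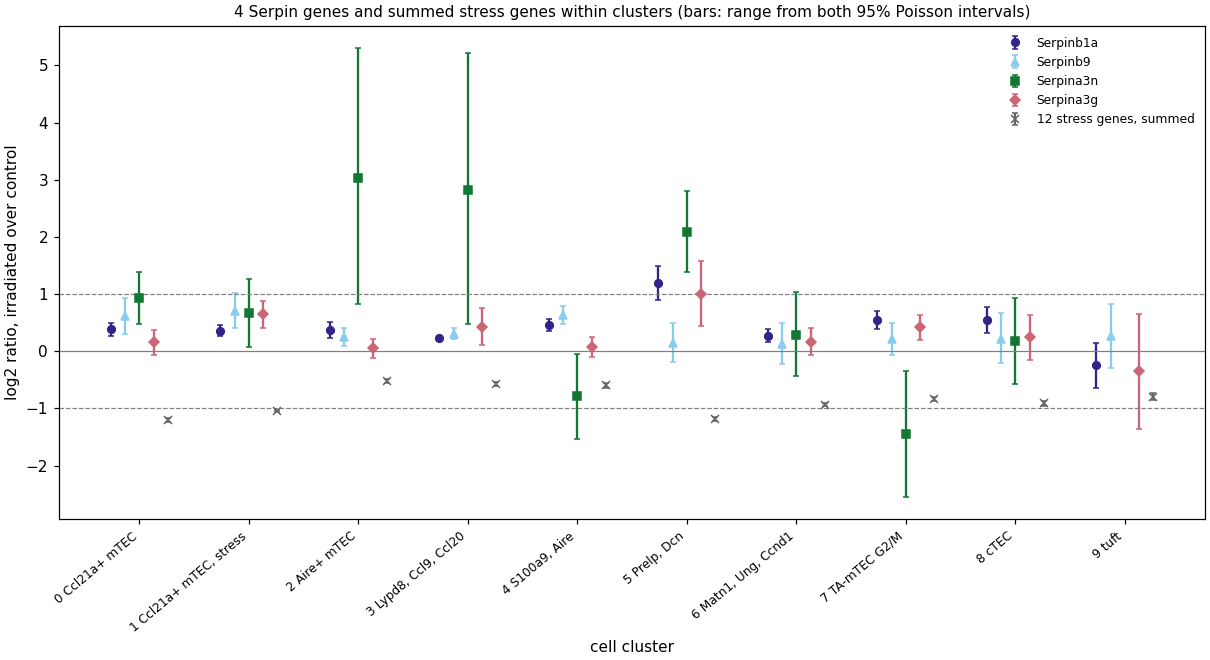
Log2 ratio of irradiated over control level (vertical axes) within clusters 0 to 9 (horizontal axes) for Serpinb1a, Serpinb9, Serpina3n, Serpina3g and the summed 12 stress genes, with bars for the range from both exact Poisson 95% intervals. The stress genes lie below 0 and Serpinb9 lies above 0 in all 10 clusters.

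Proteases and partners of the serpins were described from lists of 30 proteases, 6 receptors and cofactors, 10 collagens and 14 other protease inhibitors. Of 29 proteases with enough UMIs none changed 2-fold between the libraries, with a median of -0.11, against the 0.708% and 3.69% of all genes given above. With Aire, 13 were higher and 8 lower over all cells. The share over all genes was 25.0% higher and 16.0% lower. Known targets of the cluster 3 serpins had log2 ratios of 4.74 for Gzmb, 4.50 for Ctsg, 2.52 for Elane (95 UMIs) and -1.30 for Gzma. Of these only Gzma was lower. They were sparse, Ctsg reaching 0.18 per 10000 in cluster 4. Cathepsin L, Ctsl, was at 140 in cTEC-like cluster 8 and 134 in cluster 11 and had a log2 ratio of -4.22 with Aire. The plasminogen activators that Serpinb2 binds were low, with Plat at most 0.33 in cluster 10 and Plau at most 0.20 in cluster 8. Of the 6 receptors and cofactors, Vtn, or vitronectin, was lower in the irradiated library (-1.19) and none was higher. Of the 10 collagens Col7a1 was lower (-1.10), and of 13 other inhibitors Spink5 was lower (-1.17), which stood at 21.9 in cluster 10.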

How the data were processed

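Droplet 3′ single-cell RNA-seq of sorted TECs was analysed in 2 libraries, control and irradiated, with cells of 3 mice in each. Reads had been trimmed with fastp by the authors, who aligned them to mm10 (GRCm38) with Cell Ranger, whose version is 5.0.1 in the file headers and 5.1 in the submitters' processing notes, and deposited counts of UMIs per gene and called barcode without normalization. Barcodes with over 2000 and under 7500 detected genes and under 15% mitochondrial UMIs were kept. The upper gene limit was the only step against doublets, and no doublet caller was run. Genes found in at least 5 barcodes were used for clustering with Seurat 5.3.0 in R 4.3.3, without the Serpin genes, with 3000 variable genes, anchors over 2000 genes, 20 principal components and resolution 0.5. Clusters were called X-like from fixed markers among their 10 leading genes, which had to be found in at least 25% of cells (for cluster 11, from thymocyte markers there and cTEC levels), and clusters under 50 cells were not ranked.

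Levels were summed UMIs of a gene per 10000 summed UMIs, with exact Poisson 95% intervals (scipy 1.17.1, numpy 2.4.6, pandas 2.3.3, Python 3.11.15). Log2 ratios used 0.5 added UMIs and genes of at least 50 UMIs in the cells compared. Between libraries within clusters, the limit was at least 20 UMIs in the cluster. Called means a log2 ratio of at least 1 in size. PCR duplicates are removed by UMIs, so intervals cover counting error only, and with 1 library per condition no test was made. All members were named, with full values for the 20 with most UMIs and for others with at least 50% of UMIs in 1 cluster. Members, gene lists and alternatives were chosen with earlier results of these data known, and the list of stress genes was added after the clusters had been seen. Paralogs were checked in the GENCODE M21 annotation of GRCm38, promoters came from RefSeq, and figures were drawn with matplotlib 3.10.9. The computation was tested on simulated counts. Alternatives changed the filters, resolution, integration, weighting, added UMIs and thinning. Flow cytometry, BrdU labelling and protein sequences were not used here. A member that is counted in the totals is not reported here on its own.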

Additional observations from a re-analysis of the deposited data

Results flagged for a closer look

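Some members had log2 ratios of irradiated over control level that were past 2-fold in opposite directions in different clusters. None of these differences between clusters was tested, and most rest on few cells. Serping1 had 1.33 in dividing cluster 7, from 11 UMIs in 9 control cells and 61 in 32 irradiated cells, but -1.18 in Aire+ mTEC-like cluster 2, from 86 UMIs in 27 cells and 53 in 35 cells. Serpinf1 had 3.05 in cluster 7, from 3 UMIs in 3 cells and 61 in 14 cells, with 32.8% of the irradiated UMIs in 1 cell, but -2.42 in cTEC-like cluster 8, from 54 and 28 cells with a UMI.

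Serpina3n had 3.03 in cluster 2 (2 and 28 UMIs, in 2 and 12 cells), 2.82 in cluster 3 (2 and 18 UMIs, in 1 and 4 cells, with 77.8% of the irradiated UMIs in 1 cell) and 2.08 in cluster 5 (23 and 62 cells). In cluster 7 it had -1.44 from 32 and 25 UMIs, where 1 control cell held 65.6% of the control UMIs. Serpinb6c had 2.60 in cluster 2, from 7 UMIs in 2 cells and 63 in 8 cells, with 54.0% of the latter in 1 cell, but -1.10 in cluster 4, from 145 UMIs in 14 cells and 87 in 21 cells.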

How the results depend on the processing

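No paired analysis was possible because each condition had 1 library. Members past 2-fold between the libraries were 4, but 12 when those from 10 UMIs entered, 2 when those from 200 UMIs entered and 8 without the 5 cells of each library with most UMIs. The members added from 10 UMIs had at most 48 UMIs each. No share over all genes is given at these other settings, so their counts show only how the number depends on the limits. Between cells with 4 or more and no Aire UMI, the log2 ratio of Serpina1c became 0.34 and that of Serpina3b -1.18 in the control library alone, and that of Serpina1a became 0.00 with unthinned groups and 1.01 with another seed of the thinning, each with the opposite sign to the value reported; these genes had 147, 143 and 77 UMIs. The top cluster of the 44 members was the same for 17 at resolution 0.3, 24 at 1.0, 28 when libraries were merged without integration, 44 with Serpin genes kept in the clustering and 43 under 10% mitochondrial UMIs. Between libraries, with 0.1 or 2 added UMIs and under other cell filters, all 29 members named with full values moved by less than their intervals; 14 moved by more with the same weight for each cluster, 7 with the mean of the cells' own values and 7 without the 5 cells of each library with most UMIs, with no change of direction in a value past 2-fold. Of 28 log2 ratios with Aire, 15 moved by more than their intervals with unthinned groups, 7 with another seed, 18 in the control and 14 in the irradiated library alone, besides those that turned.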
